A study of Homo sapiens with 12 samples.

Results

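A set of 48 interferon-stimulated and RNA-sensing genes was examined in SNU308, an established human gallbladder cancer cell line, 3 days after siRNA transfection. The set was given as 49 symbols, of which DDX58 and RIGI name the same gene, and all 48 were found among the 60617 genes in the deposited files. The rule lists them by name and uses no measured value. The 12 samples fell into 3 groups of 4 replicates, which received a non-targeting control siRNA (NTC) or 1 of 2 siRNAs against CEACAM6, siCEACAM6#2 and siCEACAM6#3. All 3 siRNAs were used at 25 nM, and the cells were described as wild type in genotype. Every sample had therefore received a transfected double-stranded RNA. No mock-transfected or untransfected group was among the samples, so a response shared by all 3 siRNAs was not measured. The comparisons address whether the genes differed between the targeting siRNAs and NTC, or between the 2 targeting siRNAs. Transfection was done with Oligofectamine according to the labels and with RNAiMAX according to the study's methods.

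Double-stranded RNA in the cytosol is bound by the helicases RIG-I (gene RIGI) and MDA5 (gene IFIH1), and in endosomes by TLR3. These sensors act through the adaptors MAVS and TRIF (gene TICAM1) to switch on interferon genes. Secreted type I and type III interferons then signal through receptor kinases to a complex in which STAT2 and IRF9 take part, and this complex binds the interferon-stimulated response element in the promoters of many target genes. The products of these genes block viral translation, degrade RNA, trap virions at membranes or tag proteins with ISG15. Long double-stranded RNA is the classical trigger, whereas short duplexes such as siRNAs are generally weaker ligands whose effect varies with sequence, ends and delivery.

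The 2 targeting siRNAs are shown because their sequences distinguish those 2 groups, and the sequence of the NTC siRNA was not available. Both target sites lie in the last exon, exon 6 of 6, of CEACAM6, in its 3′ untranslated region (GRCh38, plus strand). They also lie within the span of another gene annotated by GENCODE, which has no symbol. In each site the capitals mark the 7 bases complementary to positions 2 to 8 of the guide strand, the seed, where the guide was read as complementary to the printed target.
siCEACAM6#2, chr19:41771369-41771389: cagccatgcaatgCCAAATAa
siCEACAM6#3, chr19:41771611-41771631: ctcctaatagtcaTACTAGTa
On chromosome 19, the one searched, the siCEACAM6#2 target had no other match, and that of siCEACAM6#3 had a further exact match at chr19:42799318-42799338 on the minus strand, in no gene annotated by GENCODE. Both are 21 bases long, with a GC content of 42.9% in siCEACAM6#2 and 33.3% in siCEACAM6#3, and their seeds differ. CEACAM6 itself was measured at 524, 569, 596 and 619 CPM in the NTC samples, 353, 343, 286 and 329 CPM with siCEACAM6#2 and 423, 386, 424 and 438 CPM with siCEACAM6#3. All NTC samples lay above all samples of both siRNAs. The log2 fold change versus NTC was -0.82 with siCEACAM6#2 (in limma-voom, with Benjamini-Hochberg adjustment, adjusted p = 2.71e-05) and -0.46 with siCEACAM6#3 (adjusted p = 0.0151), and siCEACAM6#3 left more of the transcript than siCEACAM6#2 (0.35, adjusted p = 0.01597). CPM is the estimated count per 1000000 counts of a library, scaled with TMM factors, and log2 fold changes and adjusted p come from 1 limma-voom fit over all 17620 genes that passed the expression filter. A gene was called changed at an adjusted p under 0.05.

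Total counts per library were nearly equal, from 21799476 to 22059456, and depth did not separate the groups. Epithelial markers (EPCAM, CDH1, KRT7, KRT8, KRT18 and KRT19) lay between 107 and 3609 TPM in all libraries, where TPM is the transcript abundance scaled for length and depth. Of 12 leukocyte, fibroblast and endothelial markers, PTPRC, CD3E, CD14, MS4A1, COL1A2, DCN, LUM, PECAM1 and CDH5 did not exceed 1.24 TPM in any library, VWF and COL1A1 did not exceed 3.76 TPM, and the monocyte-linked marker CD68 was at 28.5 to 61.9 TPM. The siCEACAM6#3 replicates differed most among themselves, with a chi-square per gene of 8.43 to 23.8 between pairs, against 2.76 to 10.3 within the other groups, and replicate 1 was in the 2 most distant pairs. The share of counts in mitochondrial genes was 11.8% to 12.9% for NTC libraries, 12.2% to 13.3% for siCEACAM6#2 and 12.5% to 15.3% for siCEACAM6#3. In these bulk samples, fewer responding cells and less RNA per cell cannot be told apart.

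Sequences of 5 promoters are shown because the response element is what the interferon-stimulated genes of the set are known to share, and the rule that listed them did not use it. RefSeq promoter windows (GRCh38.p14, 250 bases before to 50 bases after the start site) matched 40 of the 48 genes. The motif searched was the core of the interferon-stimulated response element, GAAA, any 2 bases and another GAAA, on either strand. It was found in 23 of the 40 windows (57.5%), against 3.57% of all 35116 promoter windows of that length in the table. The capitals mark the motif, written 5′ to 3′ on the strand of the gene.
ISG15, chr1:1013378-1013411, gene on the + strand: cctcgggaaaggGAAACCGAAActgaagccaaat
OAS3, chr12:112938450-112938483, gene on the + strand: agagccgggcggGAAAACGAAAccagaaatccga
SAMD9, chr7:93118094-93118127, gene on the - strand: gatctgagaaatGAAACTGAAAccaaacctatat
DTX3L, chr3:122564320-122564353, gene on the + strand: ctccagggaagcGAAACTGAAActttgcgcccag
IFITM3, chr11:320874-320907, gene on the - strand: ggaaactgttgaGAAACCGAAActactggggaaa
The motif was centred 131 bases before the start of SAMD9 and 1 base before that of DTX3L. In the ISG15 window 2 matches overlapped. No match was found in the windows of 17 genes, among them OAS1, PARP9, IRF1, STAT2, IRF9 and RIGI, which says only that these letters were not in these windows. No promoter window was matched for IFIT2, IFITM2, OAS2, OASL, IRF7, DHX58, USP18 and GBP2. A match in these letters is a description of the sequence and was not tied to binding of any factor in these cells.

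The set ranged from nearly silent to abundant in SNU308 cells. Mean TPM over the 12 samples was at least 10 for 18 genes, from 1 to 10 for 21 genes and under 1 for 9 genes, with a median of 4.92 TPM. Over the 43 genes of the set that passed the expression filter the median was 7.03 TPM, and over all genes tested it was 8.32 TPM. The highest was IFITM3, a membrane protein that blocks fusion of enveloped viruses, at 241 ± 9.66 TPM for NTC, 249.5 ± 4.13 TPM for siCEACAM6#2 and 235 ± 10.3 TPM for siCEACAM6#3 (SD, n = 4). UBE2L6, the E2 enzyme that hands ISG15 to its ligase, followed at 58.1 ± 3.39, 60.1 ± 2.91 and 53.9 ± 1.48 TPM in the same order of groups, and ADAR, which edits adenosine in double-stranded RNA, at 45.8 ± 2.52, 43.1 ± 2.43 and 44.99 ± 3.32 TPM. The lowest IFITM3 library was at 228 TPM and the highest UBE2L6 library at 62.8 TPM, and the lowest UBE2L6 library, at 52.7 TPM, lay above the highest ADAR library, at 48.6 TPM.

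The other end of the range held genes that are among the strongest responders to interferon in many cell types. CMPK2, a mitochondrial nucleotide kinase, had 6 counts in all 12 libraries together and none in NTC. RSAD2, the radical enzyme viperin, had 15 counts over the 12 libraries and at most 3 in 1 of them. A count of 0 in a library allows up to 3 counts, or 0.136 to 0.138 CPM, for counting error only. BST2 (tetherin, 32 counts in all), IFITM1 (50 counts) and IFI27 (97 counts) were also under the expression filter. These 5 genes were therefore not tested in the limma-voom fit. Their summed counts in the NTC, siCEACAM6#2 and siCEACAM6#3 groups were respectively 0, 2 and 4 for CMPK2, 5, 4 and 6 for RSAD2, 5, 9 and 18 for BST2, 12, 18 and 20 for IFITM1, and 31, 44 and 22 for IFI27. Of the 18 BST2 counts with siCEACAM6#3 most came from replicate 4, at 0.655 CPM. Of the interferon genes themselves, only IFNB1, IFNE, IFNK, IFNL1, IFNL2 and IFNL3 were looked up. IFNB1, IFNK and IFNL3 were at 0 in every library, IFNL1 and IFNL2 at no more than 1 count in any library, and IFNE at 14 to 37 counts.

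**Figure D1:**
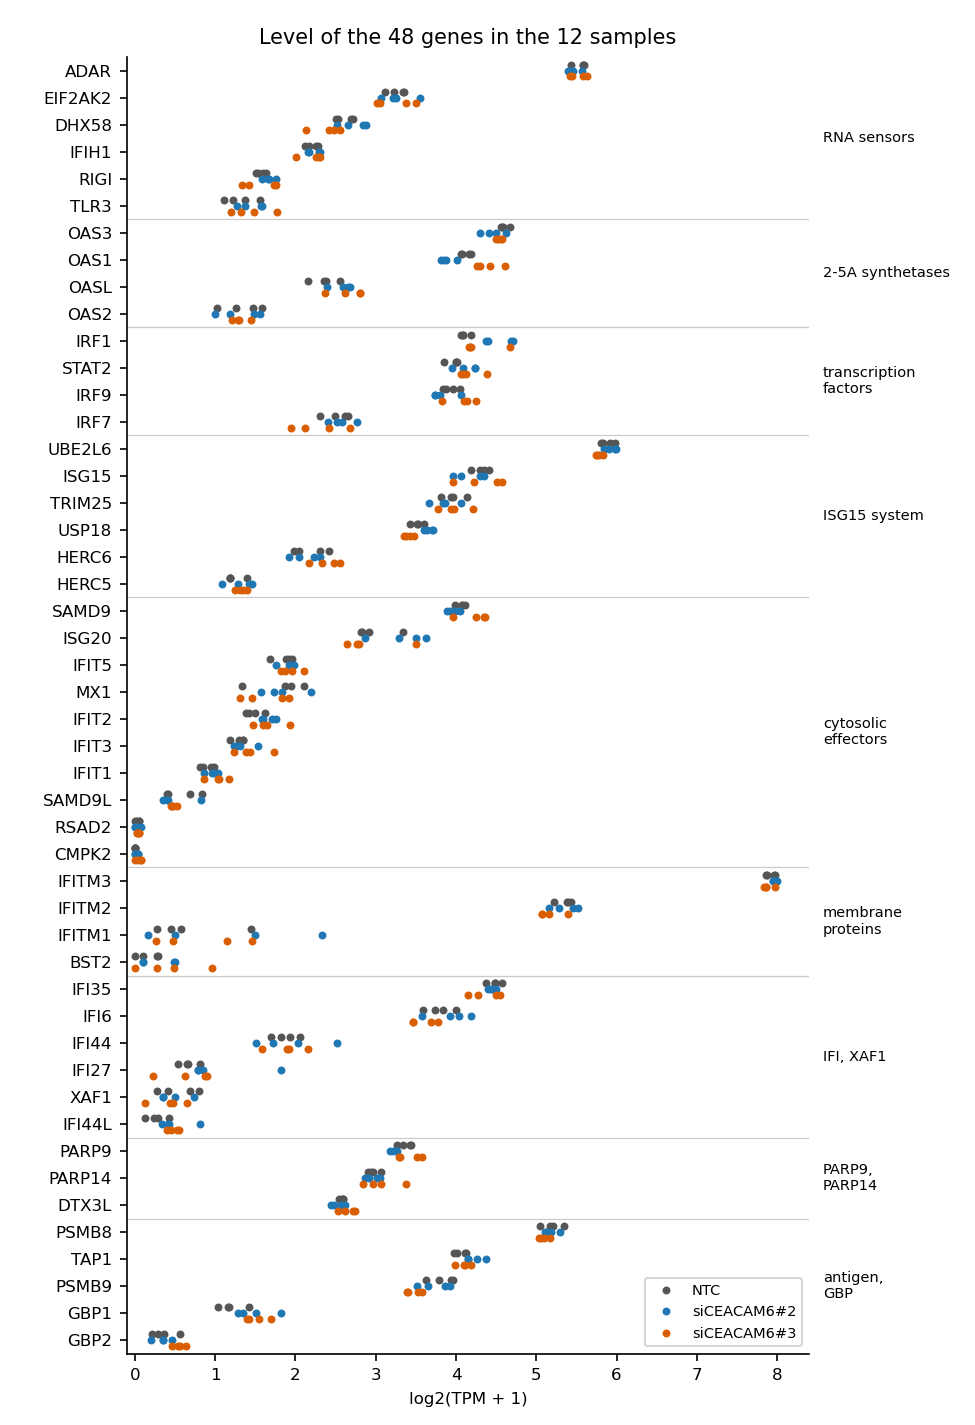
Level of each of the 48 genes, grouped by role, as log2(TPM + 1) on the horizontal axis, with 1 point per sample coloured by group (4 NTC, 4 siCEACAM6#2, 4 siCEACAM6#3). IFITM3 stands apart at 228 to 255 TPM, CMPK2 and RSAD2 lie at or near 0, and for most genes the points of the 3 groups lie on top of each other.

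None of the 43 genes tested was called versus NTC. With siCEACAM6#2 the count was 0 of 43, beside 221 of all 17620 genes (1.25%). With siCEACAM6#3 it was 0 of 43, beside 12 of all genes (0.0681%). For the average of both siRNAs versus NTC it was 0 of 43, beside 40 of all genes (0.227%). The edgeR quasi-likelihood test also called 0 in each of these 3 comparisons, and DESeq2 called 1 in each, namely IRF1 with siCEACAM6#2 and in the average and SAMD9 with siCEACAM6#3. Over all genes, edgeR called 1.44%, 0.0738% and 0.312% in these comparisons and DESeq2 3.95%, 1.72% and 2.63% of the genes to which it gave an adjusted p. The same 4 NTC samples served in all of these comparisons, so their values are given side by side and are not independent. Leaving out 1 library at a time gave 0 or 1 call versus NTC, which was IRF1 with siCEACAM6#2 (without siCEACAM6#2 replicate 1, siCEACAM6#3 replicate 1 or siCEACAM6#3 replicate 2) or, with siCEACAM6#3, STAT2 (without its replicate 1) or SAMD9 (without its replicate 4).

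Without adjustment more of the set leaned up than down. At an unadjusted p under 0.05, 7 of 43 genes (16.3%) were higher with siCEACAM6#2 than in NTC and 3 (6.98%) were lower, beside 6.5% and 7.12% of all genes tested. The 7 were ISG20, IFI44L, IFIT2, OASL, IRF1, USP18 and TAP1, and the 3 were OAS1, OAS3 and PARP9. With siCEACAM6#3, 11 (25.6%) were higher and 1 (2.33%) was lower, beside 5.98% and 6.5% of all genes. Those 11 were IFI44L, IFIT2, OAS1, OAS2, OASL, STAT2, IRF9, SAMD9, SAMD9L, PARP14 and GBP1, and the lower one was PSMB9. In the average, 9 (20.9%) were higher and 0 were lower, beside 6.06% and 6.82% of all genes. None of these genes had an adjusted p under 0.05, so the shares describe the set and single out no gene. The CPM of the groups did not overlap for 7 of 43 genes (16.3%) between siCEACAM6#2 and NTC, beside 10.8% of all genes, and for 5 (11.6%) between siCEACAM6#3 and NTC, beside 6.27%.

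The shift of the set as a whole was small. The median log2 fold change over the 43 genes was 0.08 with siCEACAM6#2, 0.10 with siCEACAM6#3 and 0.09 for both siRNAs averaged, beside medians of 0.000169, -0.00324 and -0.00247 over all genes tested. Of the 43, 30, 31 and 31 lay above 0 in these comparisons. On log2(TPM + 1) the medians of the set were 0.02, 0.01 and 0.02, beside -0.02, -0.04 and -0.03 over all genes. The set thus lay above all genes by 0.08, 0.10 and 0.09 in counts and by 0.04, 0.05 and 0.05 on log2(TPM + 1). The sign was the opposite on log2(TPM + 1) for 8 of the 43 genes with siCEACAM6#2 (IFITM2, OAS2, IRF9, EIF2AK2, SAMD9L, PARP14, HERC6 and PSMB8) and for 9 with siCEACAM6#3 (ISG20, IFITM3, OAS2, RIGI, DHX58, EIF2AK2, SAMD9L, GBP2 and ADAR), and none of these was called on either scale. Relative to each gene's mean over the 12 samples, the median log2 CPM of the 43 genes in each library was -0.04, -0.01, -0.03 and -0.07 in NTC, 0.01, 0.04, -0.02 and 0.02 with siCEACAM6#2 and 0.04, 0.10, 0.02 and 0.04 with siCEACAM6#3. Every siCEACAM6#3 library lay above every NTC library, and siCEACAM6#2 replicate 3 lay within the NTC range. Summed over the 48 genes, CPM was 1017, 1023, 1023 and 1033 in NTC, 1009, 1029, 1034 and 1031 with siCEACAM6#2 and 1068, 1123, 1068 and 1064 with siCEACAM6#3, while the summed TPM was 699, 708, 712 and 716, then 709, 723, 729 and 736, then 710.4, 691, 687 and 711. The summed CPM was thus highest in the siCEACAM6#3 libraries and the summed TPM was not. The mitochondrial share was above that of every other library in siCEACAM6#3 replicates 2 to 4 and within the NTC range in its replicate 1, and its part in these values was not tested.

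The precision of these comparisons can be read from the 95% intervals. With siCEACAM6#2, the interval of the log2 fold change lay within 0.5 on either side of 0 for 32 of the 43 genes (74.4%) and within 1 for 41 (95.3%), beside 68.5% and 91.4% of all genes tested. With siCEACAM6#3 the counts were 29 (67.4%) and 41 (95.3%), beside 68.8% and 91.4%. The 2 genes with intervals beyond 1 in both comparisons were IFI44L and XAF1, which are among the lowest of those tested. A change of 1 on the log2 scale in either direction therefore lay outside the interval for most of the set, and this says nothing on a response shared with NTC.

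**Figure D2:**
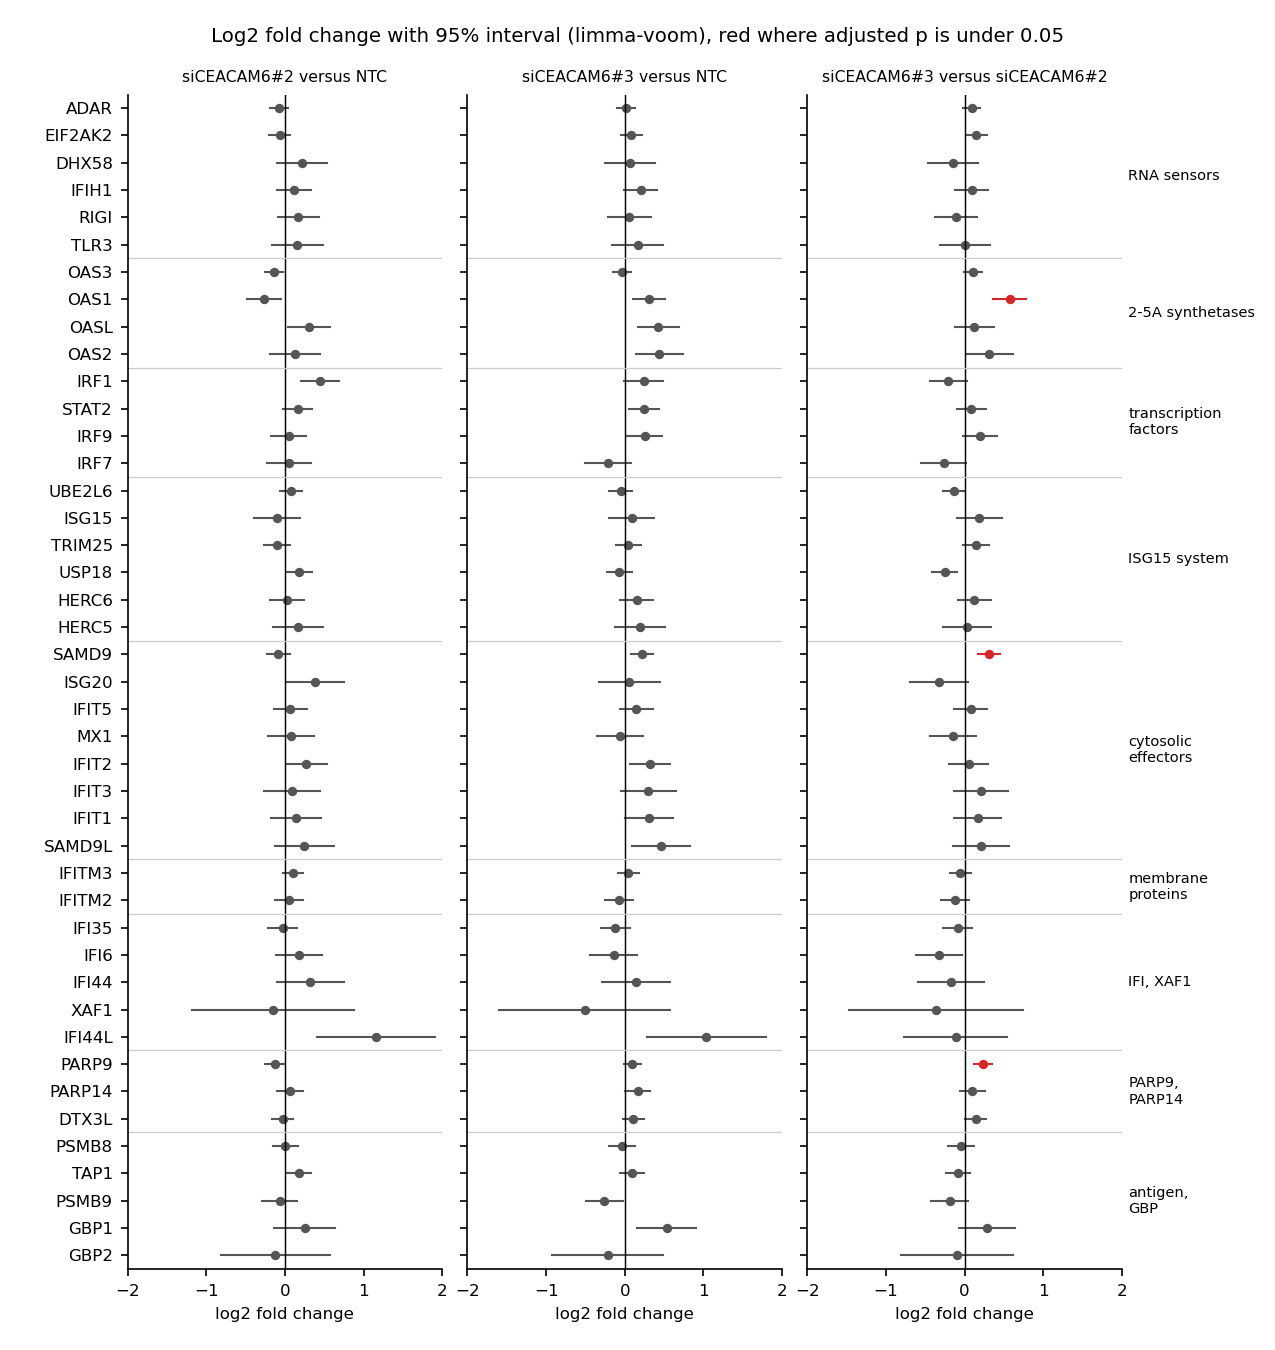
Log2 fold change (points) with its 95% interval (lines) from limma-voom for the 43 genes tested, in 3 panels for siCEACAM6#2 versus NTC, siCEACAM6#3 versus NTC and siCEACAM6#3 versus siCEACAM6#2, n = 4 per group. Red marks an adjusted p under 0.05, which holds for OAS1, SAMD9 and PARP9 in the third panel only, and the intervals of IFI44L and XAF1 are the widest.

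Between siCEACAM6#3 and siCEACAM6#2, 3 of the 43 genes (6.98%) were called, beside 259 of all 17620 genes (1.47%). They were OAS1, a 2-5A synthetase, SAMD9, a restriction factor of poxviruses, and PARP9, a member of the PARP family. All 3 were higher with siCEACAM6#3, by 0.57, 0.31 and 0.23 on the log2 scale. The edgeR test and DESeq2 called the same 3, beside 1.57% and 4.01% of all genes. The count was 1, OAS1, without any 1 of the siCEACAM6#2 replicates and without siCEACAM6#3 replicate 2 or replicate 3, with library size scaling only and on log2(TPM + 1). Over all genes, 1.32% were called with library size scaling only and 0.278% on log2(TPM + 1). At an unadjusted p under 0.05, 6 (14%) were higher with siCEACAM6#3 and 2 (4.65%) were lower, beside 6.81% and 6.5% of all genes. The 6 were OAS1, OAS2, EIF2AK2, SAMD9, PARP9 and DTX3L, and the 2 were IFI6 and USP18. The median over the 43 was 0.05, beside -0.00429 over all genes. The CPM of the 2 siRNA groups did not overlap for 4 genes (9.3%), OAS1, SAMD9, PARP9 and USP18, beside 6.68% of all genes. The mitochondrial share was highest in siCEACAM6#3 replicates 2 to 4, at 15.3%, 14.3% and 14.6%. Between the groups it cannot be told apart from the siRNA. Replicate 1 of siCEACAM6#3, with a share of 12.5%, had the highest PARP9 level of all libraries. Replicate 4 had the lowest SAMD9 and PARP9 levels of its group and the highest OAS1 level. The part of the mitochondrial share in these genes was not tested.

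The sensors of double-stranded RNA were all expressed and none of the 6 was called in any of the 4 comparisons. RIGI, which binds RNA with 5′ triphosphate ends, was at 7.01, 6.54, 6.42 and 6.39 CPM in the NTC samples, 7.25, 8.21, 6.98 and 7.2996 CPM with siCEACAM6#2 and 8.03, 5.27, 8.203 and 6.32 CPM with siCEACAM6#3. The groups overlapped, and siCEACAM6#3 held both its lowest and its second-lowest library. IFIH1, which binds long duplexes, was at 8.26, 8.23, 7.25 and 7.35 CPM in the NTC samples, 7.93, 8.26, 9.44 and 8.06 CPM with siCEACAM6#2 and 8.84, 9.27, 10.1 and 7.73 CPM with siCEACAM6#3. TLR3, the endosomal receptor of double-stranded RNA, was at 2.59, 3.43, 2.94 and 2.78 CPM in the NTC samples, 3.44, 3.09, 3.37 and 3.13 CPM with siCEACAM6#2 and 4.31, 3.15, 3.25 and 2.58 CPM with siCEACAM6#3. Both genes overlapped between all groups. EIF2AK2, the kinase PKR that halts translation when it binds duplex RNA, was at 48.7, 47.3, 44.6 and 46.5 CPM in the NTC samples, 49.1, 42.7, 43.1 and 44.1 CPM with siCEACAM6#2 and 51.1, 52.3, 50.5 and 44.7 CPM with siCEACAM6#3, and its 3 groups overlapped as well.

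Versus NTC, the log2 fold change of RIGI was 0.17 with siCEACAM6#2 (95% interval -0.09 to 0.43) and 0.06 with siCEACAM6#3 (-0.21 to 0.33). For IFIH1 it was 0.11 (-0.10 to 0.33) and 0.20 (-0.01 to 0.41) in the same order. For TLR3 it was 0.16 (-0.17 to 0.48) and 0.16 (-0.16 to 0.49). For EIF2AK2 it was -0.07 (-0.20 to 0.07) and 0.08 (-0.05 to 0.22), and its sign was the opposite in both comparisons on the TPM scale. Between the siRNAs EIF2AK2 was higher with siCEACAM6#3 by 0.15 (0.01 to 0.28, adjusted p = 0.309, limma-voom). On log2(TPM + 1) that difference was -0.03. DHX58, the helicase LGP2 that tunes the other helicases, had 0.22 and 0.07 versus NTC, the latter turning to -0.22 on log2(TPM + 1). The adjusted p of all 6 sensors versus NTC lay between 0.419 and 0.938 in limma-voom. ADAR was at 230.3, 227, 216 and 231 CPM in the NTC samples, 208, 213, 212 and 226 CPM with siCEACAM6#2 and 228, 252, 219.7 and 216 CPM with siCEACAM6#3, with overlapping groups and log2 fold changes of -0.07 and 0.01. All 6 intervals lay within 0.5 of 0 with siCEACAM6#3, and 5 of 6 did with siCEACAM6#2.

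The 2-5A synthetases make the short oligoadenylates that switch on RNase L when they meet double-stranded RNA, and this family held the clearest difference in the set. OAS1 was at 16.9, 18.4, 18.7 and 19.2 CPM in the NTC samples, 14.6, 17.2, 14.2 and 15.002 CPM with siCEACAM6#2 and 20.7, 19.8, 22.8 and 27.9 CPM with siCEACAM6#3. Every siCEACAM6#3 library lay above every NTC and every siCEACAM6#2 library, while siCEACAM6#2 replicate 2 lay within the NTC range and the other siCEACAM6#2 libraries below it. Between the siRNAs the log2 fold change was 0.57 ± 0.10 (SE, 95% interval 0.36 to 0.78), higher with siCEACAM6#3 (adjusted p = 0.00917, limma-voom). In TPM, OAS1 was at 16.4 ± 0.778 for NTC, 13.8 ± 0.917 for siCEACAM6#2 and 20.2 ± 2.42 for siCEACAM6#3 (SD, n = 4). Versus NTC it differed in opposite directions, by -0.27 with siCEACAM6#2 (adjusted p = 0.2496) and 0.31 with siCEACAM6#3 (adjusted p = 0.216), and neither was called. The difference between the siRNAs was called in all 8 other settings, at 0.51 to 0.58, and without each of the 12 libraries in turn, at 0.47 to 0.63. Leaving out siCEACAM6#3 replicate 4, the highest library, gave the 0.47.

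OAS2 was at 2.63, 3.38, 2.94 and 2.92 CPM in the NTC samples, 3.08, 3.18, 2.74 and 4.03 CPM with siCEACAM6#2 and 4.71, 3.63, 4.17 and 3.65 CPM with siCEACAM6#3. All siCEACAM6#3 libraries lay above all NTC libraries, and siCEACAM6#2 overlapped both. The log2 fold change was 0.13 with siCEACAM6#2 and 0.44 with siCEACAM6#3 versus NTC (adjusted p = 0.7801 and 0.234), but mean TPM was 1.55, 1.503 and 1.48 in NTC, siCEACAM6#2 and siCEACAM6#3, so the sign turned on the TPM scale. OAS3, the largest of the family and the one with the highest TPM among the 4, was at 96.4, 98.9, 102 and 103 CPM in the NTC samples, 95.9, 86.4, 92.2 and 89.3 CPM with siCEACAM6#2 and 95.3, 105, 93.3 and 98.04 CPM with siCEACAM6#3. Its siCEACAM6#2 libraries lay just below the NTC libraries, a difference of -0.14 (adjusted p = 0.236), and with siCEACAM6#3 it was -0.03. OASL, a family member that lacks the synthetase activity and acts on RIG-I, was at 7.32, 8.502, 8.76 and 6.02 CPM in the NTC samples, 10.7, 9.18, 8.62 and 9.09 CPM with siCEACAM6#2 and 10.1, 8.71, 10.7 and 11.4 CPM with siCEACAM6#3. With siCEACAM6#2 and siCEACAM6#3 its log2 fold change was 0.31 and 0.43 (adjusted p = 0.273 and 0.179), and in the average 0.37 (95% interval 0.14 to 0.60, adjusted p = 0.149). Its NTC range overlapped that of each siRNA. OAS2 and OAS3 were named after their values were seen. Between the siRNAs the family's log2 fold changes were 0.57, 0.32, 0.11 and 0.12 for OAS1, OAS2, OAS3 and OASL, and OAS1 alone was called.

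**Figure D3:**
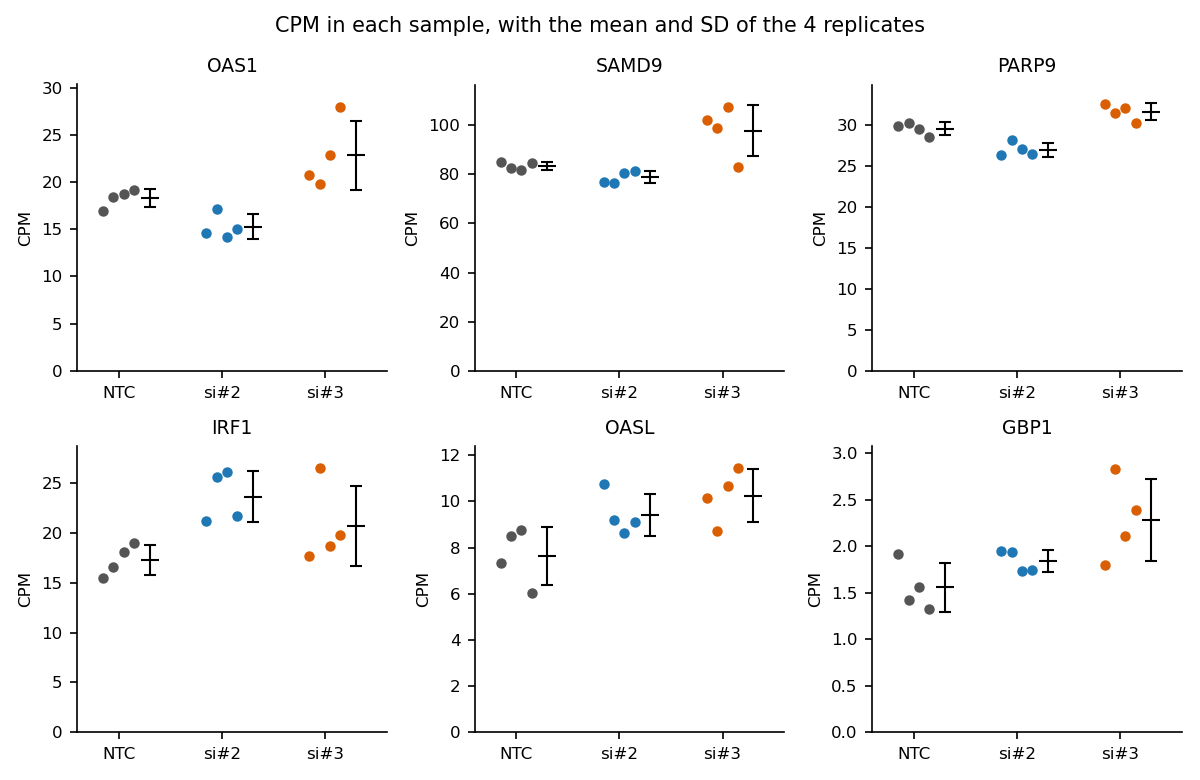
CPM (vertical axis, from 0) of OAS1, SAMD9, PARP9, IRF1, OASL and GBP1 in each sample of the 3 groups, with the mean and SD of 4 replicates beside the points (si#2, siCEACAM6#2; si#3, siCEACAM6#3). OAS1 lies at 19.8 to 27.9 CPM with siCEACAM6#3 against 14.2 to 17.2 CPM with siCEACAM6#2, and SAMD9 replicate 4 of siCEACAM6#3, at 82.8 CPM, lies close to the NTC libraries.

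Among the transcription factors, IRF1 came closest to a call. IRF1, which is induced by interferon gamma and also by NF-κB signalling, was at 15.5, 16.6, 18.03 and 18.9 CPM in the NTC samples, 21.2, 25.6, 26.04 and 21.7 CPM with siCEACAM6#2 and 17.7, 26.5, 18.7 and 19.8 CPM with siCEACAM6#3, and it is named here after its values were seen. All siCEACAM6#2 libraries lay above all NTC libraries, whereas siCEACAM6#3 overlapped both groups, with replicate 2 as its highest. The log2 fold change with siCEACAM6#2 was 0.45 ± 0.11 (SE, adjusted p = 0.0684, limma-voom), with siCEACAM6#3 0.24 (adjusted p = 0.412), and in the average 0.35 (adjusted p = 0.149). With siCEACAM6#2 it passed the threshold when siCEACAM6#2 replicate 1 (0.50, adjusted p = 0.0458), siCEACAM6#3 replicate 1 (adjusted p = 0.0426) or siCEACAM6#3 replicate 2 (adjusted p = 0.0163) was left out, and also in DESeq2 (adjusted p = 0.00947) and with sample weights (0.00661). It stayed above the threshold without each of the other 9 libraries, in the edgeR test, with library size only, with no filter and on both TPM scales, with adjusted p up to 0.236. Without siCEACAM6#3 replicate 2 the log2 fold change with siCEACAM6#3 fell to 0.12 (adjusted p = 0.776). The difference between the 2 siRNAs for IRF1 was -0.21 and was not called (adjusted p = 0.458), and it ranged from -0.33 without siCEACAM6#3 replicate 2 to -0.13 without its replicate 1, uncalled in both.

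STAT2, a subunit of the complex that binds the response element, was at 43.3, 43.2, 41.98 and 45.3 CPM in the NTC samples, 43.5, 50.8, 52.4 and 48.1 CPM with siCEACAM6#2 and 43.5, 62.1, 49.9 and 52.2 CPM with siCEACAM6#3. Its groups overlapped, and siCEACAM6#3 replicate 2 was the highest library and replicate 1 lay within the NTC range. The log2 fold change was 0.16 with siCEACAM6#2 (95% interval -0.02 to 0.35) and 0.25 with siCEACAM6#3 (0.06 to 0.43, adjusted p = 0.265), and without siCEACAM6#3 replicate 1 the latter became 0.33 (adjusted p = 0.0449) and without replicate 2 0.16 (adjusted p = 0.573). IRF9, the DNA-binding subunit of that complex, was at 11.3, 11.2, 11.9 and 13.5 CPM in the NTC samples, 10.7, 12.6, 12.9 and 13.5 CPM with siCEACAM6#2 and 11.8, 15.4, 14.6 and 15.5 CPM with siCEACAM6#3, with overlap between groups. IRF9 differed from NTC by 0.05 with siCEACAM6#2 and 0.25 with siCEACAM6#3 (adjusted p = 0.329). IRF7, which amplifies interferon production, was at 4.75, 4.96 and 3.996 TPM on average in NTC, siCEACAM6#2 and siCEACAM6#3, with log2 fold changes of 0.05 and -0.21. None of the 4 factors was called in any comparison.

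Of the 10 antiviral effectors of the cytosol, 8 were tested. SAMD9, a restriction factor of poxviruses that also slows cell growth, was at 84.9, 82.3, 81.5 and 84.5 CPM in the NTC samples, 76.7, 76.5, 80.4 and 81.4 CPM with siCEACAM6#2 and 102, 98.8, 107 and 82.8 CPM with siCEACAM6#3. In siCEACAM6#3, replicates 1 to 3 lay above every other library, and replicate 4 lay within the NTC range and just above the highest siCEACAM6#2 library. Between the siRNAs SAMD9 was higher with siCEACAM6#3 by 0.31 ± 0.07 (SE, log2 scale, adjusted p = 0.0302). Versus NTC its log2 fold changes were -0.08 with siCEACAM6#2 and 0.22 with siCEACAM6#3 (adjusted p = 0.657 and 0.1903), and without siCEACAM6#3 replicate 4 the latter was 0.30 (adjusted p = 0.0246). The call between the siRNAs was lost without any 1 of the 4 siCEACAM6#2 replicates (0.29 to 0.32, adjusted p from 0.0639 to 0.08198) and without siCEACAM6#3 replicate 2 or replicate 3 (adjusted p = 0.0657 and 0.0999). It was also lost with library size scaling only (adjusted p = 0.0651) and on log2(TPM + 1) (adjusted p = 0.241).

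SAMD9L, the neighbouring paralog of SAMD9, was at 1.21, 1.65, 1.697 and 1.095 CPM in the NTC samples, 1.77, 1.52, 1.505 and 1.84 CPM with siCEACAM6#2 and 1.88, 1.88, 2.06 and 1.83 CPM with siCEACAM6#3, and per length its mean over the 12 samples was 0.445 TPM against 16.1 TPM for SAMD9. All siCEACAM6#3 libraries lay above all NTC libraries in CPM, with log2 fold changes of 0.25 for siCEACAM6#2 and 0.46 for siCEACAM6#3 (adjusted p = 0.597 and 0.301). In TPM the order was the reverse, with 0.513 ± 0.228, 0.427 ± 0.235 and 0.395 ± 0.0308 TPM in NTC, siCEACAM6#2 and siCEACAM6#3 (SD, n = 4), and the sign of the fold change turned on that scale, so no direction is given. The tetratricopeptide proteins IFIT1, IFIT2, IFIT3 and IFIT5, which bind viral RNA ends, were each between 0.956 and 2.74 TPM on average. Their log2 fold changes ran from 0.07 (IFIT5) to 0.27 (IFIT2) with siCEACAM6#2 and from 0.15 (IFIT5) to 0.32 (IFIT2) with siCEACAM6#3, and none was called. MX1, a GTPase against influenza viruses, was at 0.08 and -0.06, and ISG20, an exonuclease of single-stranded RNA, at 0.38 and 0.06 in the same order. Over the 8 genes the median log2 fold change was 0.12 with siCEACAM6#2 and 0.26 with siCEACAM6#3.

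PARP9, a member of the PARP family, forms a complex with the ubiquitin ligase DTX3L, and PARP14 is an ADP-ribosyltransferase of the same family. PARP9 was at 29.9, 30.3, 29.5 and 28.5 CPM in the NTC samples, 26.3, 28.2, 27.04 and 26.4 CPM with siCEACAM6#2 and 32.6, 31.5, 32.1 and 30.3 CPM with siCEACAM6#3. The 3 groups were arranged without overlap, with siCEACAM6#2 lowest, NTC between and siCEACAM6#3 highest, although the distance from the highest NTC to the lowest siCEACAM6#3 library was small. Between the siRNAs the log2 fold change was 0.23 ± 0.05 (SE, adjusted p = 0.0456, limma-voom). Versus NTC it was -0.13 with siCEACAM6#2 and 0.10 with siCEACAM6#3, and neither was called (adjusted p = 0.295 and 0.469). The call lay close to the threshold. It held without siCEACAM6#3 replicate 4 (adjusted p = 0.0312) and was lost when any other library was left out, at 0.22 to 0.25 on the log2 scale, with adjusted p from 0.0529 to 0.132. It was also lost with library size scaling only (adjusted p = 0.0982), with no filter (0.1404) and on log2(TPM + 1) (0.418).

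DTX3L lies head to head with PARP9 on chromosome 3 on the opposite strand, and the annotated start sites are 446 bases apart, at 122564338 and 122564784, so that the first bases of the 2 gene models overlap. Whether the counting used strand is not stated, and reads from the overlap may have been divided between them. DTX3L ranged from 20.3 to 24.999 CPM over all libraries, and between the siRNAs differed by 0.14 (adjusted p = 0.336). PARP14 differed by 0.10 (adjusted p = 0.622).

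The system that attaches ISG15 to proteins was expressed in all groups and showed no called change. ISG15, the ubiquitin-like modifier, was at 5.85, 6.899, 6.61 and 6.75 CPM in the NTC samples, 6.795, 5.72, 5.33 and 6.58 CPM with siCEACAM6#2 and 7.53, 5.41, 6.42 and 8.71 CPM with siCEACAM6#3. The 3 groups overlapped, and siCEACAM6#3 held both the highest library and nearly the lowest. ISG15 differed from NTC by -0.10 with siCEACAM6#2 (95% interval -0.39 to 0.19) and 0.09 with siCEACAM6#3 (-0.20 to 0.37). UBE2L6 was at 43.9, 45.1, 52.3 and 49.1 CPM in the NTC samples, 46.9, 53.8, 52.1 and 48.2 CPM with siCEACAM6#2 and 43.9, 45.5, 44.8 and 49.1 CPM with siCEACAM6#3, which overlapped as well, with log2 fold changes of 0.08 and -0.05. HERC5, the ligase for ISG15, and its relative HERC6 had 0.17 and 0.03 with siCEACAM6#2 and 0.20 and 0.15 with siCEACAM6#3. TRIM25, the ligase that takes part in RIG-I signalling, had -0.10 and 0.04. USP18, the protease that removes ISG15 and dampens interferon receptor signalling, was at 12.7, 13.8, 14.3 and 14.9 CPM in the NTC samples, 16.2, 16.8, 15.1 and 15.1 CPM with siCEACAM6#2 and 12.4, 13.5, 13.9 and 13.2 CPM with siCEACAM6#3. For USP18 all siCEACAM6#2 libraries lay above all libraries of NTC and siCEACAM6#3, with 0.18 versus NTC (adjusted p = 0.271) and -0.25 between the siRNAs (adjusted p = 0.111), and USP18 was described in full after its values were seen.

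The membrane proteins that hold back virus entry were represented by IFITM2 and IFITM3 above the filter. IFITM3 was at 73.9, 74.5, 83.3 and 81.2 CPM in the NTC samples, 81.3, 84.3, 87.1 and 82.3 CPM with siCEACAM6#2 and 75.3, 79.2, 78.5 and 90.4 CPM with siCEACAM6#3, with overlapping groups. It differed from NTC by 0.10 with siCEACAM6#2 (95% interval -0.03 to 0.23) and by 0.05 with siCEACAM6#3 (-0.08 to 0.18). IFITM2 had 0.05 and -0.07. The 2 genes are close copies, so the way kallisto divided reads between them is uncertain.

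Among the IFI genes and XAF1, the largest fitted change in the set was that of IFI44L, a regulator of the interferon response, and it rested on few counts. IFI44L was at 0.179, 0.401, 0.459 and 0.137 CPM in the NTC samples, 0.6795, 0.692, 0.547 and 0.537 CPM with siCEACAM6#2 and 0.404, 0.8004, 0.5499 and 0.562 CPM with siCEACAM6#3, which corresponded to 3 to 17 counts per library. All siCEACAM6#2 libraries lay above all NTC libraries, while siCEACAM6#3 replicate 1 lay within the NTC range. The log2 fold change was 1.15 with siCEACAM6#2 (95% interval 0.40 to 1.90, adjusted p = 0.134) and 1.04 with siCEACAM6#3 (0.28 to 1.80, adjusted p = 0.256), and IFI44L was named after its values were seen. Its relative IFI44 had 0.32 and 0.14, and IFI6, an inhibitor of apoptosis at mitochondria, had 0.18 and -0.14. IFI35 had -0.03 and -0.12. XAF1, an antagonist of the apoptosis inhibitor XIAP, lay at 2 to 19 counts per library, and its intervals of -1.18 to 0.88 and -1.60 to 0.57 were too wide to give a direction.

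Among the guanylate-binding proteins and genes of antigen processing, GBP1, a GTPase induced mainly by interferon gamma, was at 1.92, 1.42, 1.56 and 1.32 CPM in the NTC samples, 1.95, 1.94, 1.73 and 1.75 CPM with siCEACAM6#2 and 1.79, 2.82, 2.11 and 2.39 CPM with siCEACAM6#3. The groups overlapped through NTC replicate 1, the highest of its group. GBP1 differed from NTC by 0.25 with siCEACAM6#2 and 0.53 with siCEACAM6#3 (adjusted p = 0.606 and 0.238), and in the average by 0.39 (95% interval 0.06 to 0.73, adjusted p = 0.3099), the largest size in the set among genes with a mean CPM of at least 1. GBP2 had -0.12 and -0.22 at a mean of 0.341 TPM, and with siCEACAM6#3 the sign was the opposite on log2(TPM + 1), at 0.19. The immunoproteasome subunits PSMB8 and PSMB9 had 0.01 and -0.07 with siCEACAM6#2 and -0.04 and -0.26 with siCEACAM6#3. TAP1, a subunit of the peptide transporter, had 0.18 and 0.09. None of these 5 genes was called in any comparison.

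**Figure D4:**
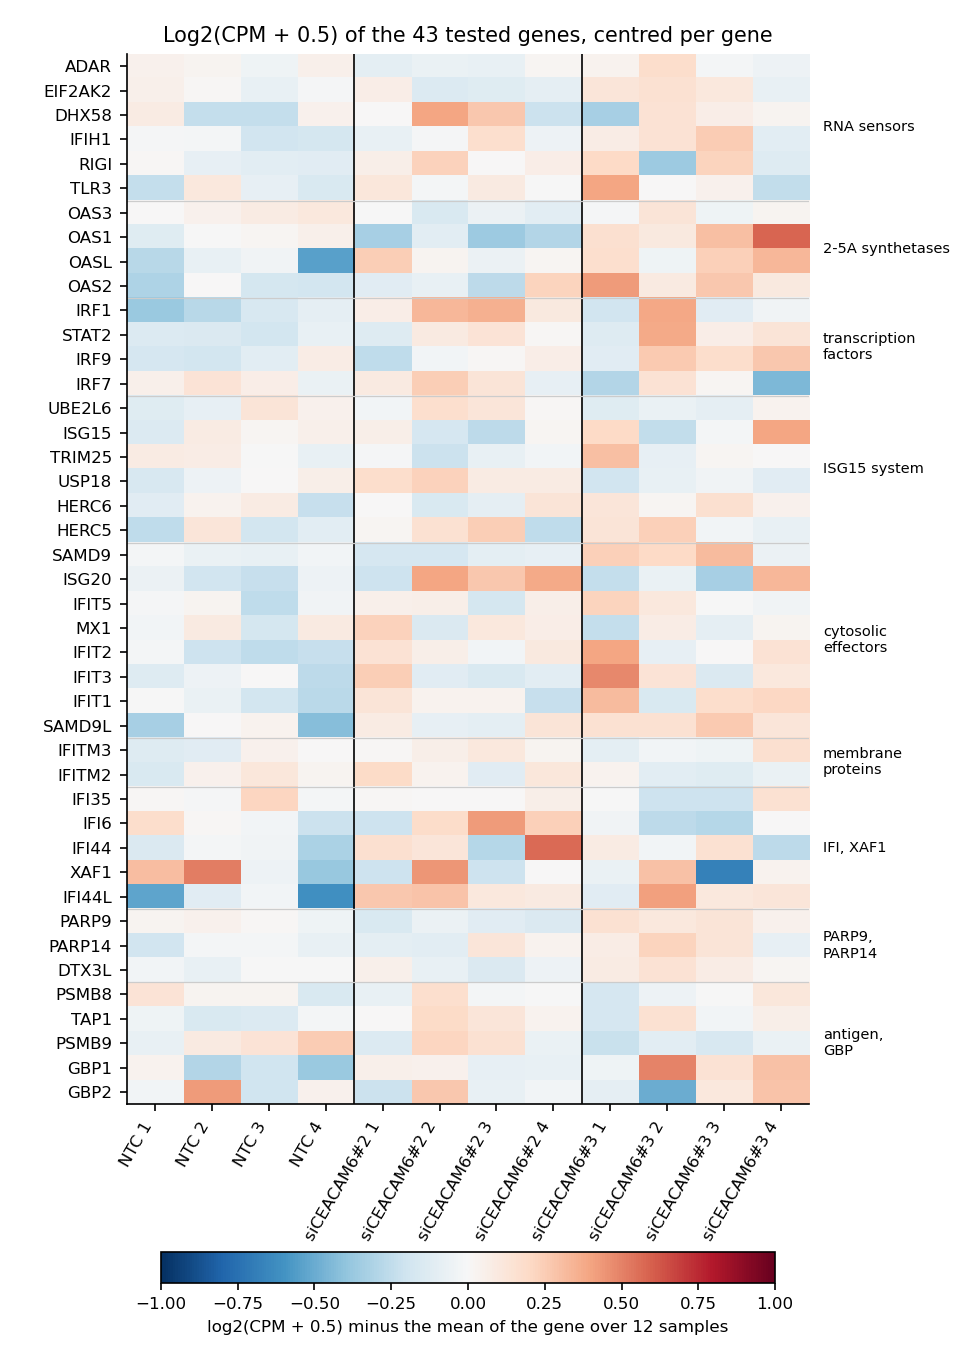
Colour map of the 43 genes tested (rows, by role) in the 12 samples (columns), as log2(CPM + 0.5) minus the mean of the gene over the 12 samples, from blue (-1) to red (1). OAS1 is blue in siCEACAM6#2 and red in siCEACAM6#3 replicates, SAMD9 is red in siCEACAM6#3 replicates 1 to 3, and no column is red or blue for the whole set.

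The promoter motif was set beside these values as a description, without a test. Of the genes tested, 20 had the motif in their window and 15 had a window without it. The median log2 fold change of the former was 0.11 with siCEACAM6#2 and 0.15 with siCEACAM6#3, and that of the latter 0.00774 and 0.06. Between the siRNAs the medians were 0.08 and 0.08. Of the 3 genes called between the siRNAs, SAMD9 held the motif, and the windows of OAS1 and PARP9 did not. DTX3L, the neighbour of PARP9, held it beside its own start.

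The seed sites of the siRNAs were looked up in the annotated 3′ untranslated regions of the 43 genes tested. The site of siCEACAM6#2, CCAAATA, was present in 8 (18.6%), beside 15.6% of 13748 genes tested that had such a region, and that of siCEACAM6#3, TACTAGT, in 3 (6.98%), beside 6.63%. SAMD9 and PARP9, both lower with siCEACAM6#2 than with siCEACAM6#3, each held 1 site of siCEACAM6#2, and OAS1 held none of either siRNA. The other 6 with the siCEACAM6#2 site were OASL, GBP1, IFIT2 and XAF1 with 1 site each, EIF2AK2 with 2 and IFI44L with 3. With siCEACAM6#2 versus NTC, the median log2 fold change of the 8 was 0.09 and that of the 35 without the site 0.08, with 4 of the 8 above 0 and 4 below. The siCEACAM6#3 site was in IFIT1, IFIT5 and RIGI, which had 0.31, 0.15 and 0.06 with siCEACAM6#3. A match of 7 letters is a description, and whether these sites acted in the cells was not tested.

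Genes of the same pathway outside the set were counted from a list of 62 (interferon genes, receptors, kinases, adaptors, feedback regulators and further effectors), of which 49 were tested. With siCEACAM6#2, 1 of the 49 was called higher and 0 lower, beside 1.25% of all genes called, and 7 and 2 had an unadjusted p under 0.05 in these directions, beside 6.5% and 7.12%. This was TICAM1, the adaptor TRIF of TLR3, at 22.2, 21.2, 21.8 and 23.5 CPM in the NTC samples, 27.8, 29.4, 28.5 and 27.8 CPM with siCEACAM6#2 and 22.1, 27.3, 24.8 and 28.7 CPM with siCEACAM6#3, a log2 fold change of 0.35 (adjusted p = 0.0299, limma-voom). All siCEACAM6#2 libraries of TICAM1 lay above all NTC libraries, and siCEACAM6#3, at 0.20 (adjusted p = 0.288), overlapped both. For siCEACAM6#3, the average and the comparison of the siRNAs, 0 of 49 were called in either direction by limma-voom, where 7 and 2, 6 and 1, and 1 and 1 had an unadjusted p under 0.05 with a higher and lower level respectively. Over all genes the shares at that p were 5.98% and 6.5%, 6.06% and 6.82%, and 6.81% and 6.5%. The medians over the 49 were 0.03, 0.03, 0.03 and 0.02 for siCEACAM6#2, siCEACAM6#3, their average and the comparison of the siRNAs. Receptor subunits and kinases were expressed, with IFNAR1 at 25.2 TPM, IFNAR2 at 11.9 TPM, JAK1 at 16.5 TPM and TYK2 at 36.3 TPM on average over the 12 samples. The inflammatory targets CXCL10 and CXCL11 reached at most 8 and 7 counts in any library, and CCL5 lay at 10 to 62 counts.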

How the data were processed

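RNA-seq libraries of 12 samples were grouped by their labels, and the 4 replicates of a group were described as individual experiments. Reads were trimmed with Trim Galore 0.6.4 and quantified with kallisto on GRCh38.p13, per the labels. The authors deposited, for each sample, estimated counts per gene, not scaled for depth, and TPM values. The labels and the study's methods differ on read layout. Estimated counts were rounded, genes were kept with filterByExpr by group in edgeR 4.0.16 (17620 genes, holding 99.9% of the counts), and TMM factors, voom and a moderated linear model over all 3 groups were applied with limma 3.58.1 in R 4.3.3, as the study's methods name limma-voom. P-values were adjusted by Benjamini-Hochberg over all genes tested. They set each group difference against the spread between replicates within the groups of these samples. The script was tested on simulated data. Totals of 21799476 to 22059456 counts limit the lowest genes, and kallisto's division of reads among paralogs or overlapping genes is uncertain.

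The set and lists were chosen with earlier results of these data known. Values in every sample were given for called genes, the 3 with the largest average change at a mean CPM of at least 1, the 3 with the highest TPM, the sensors RIGI, IFIH1, EIF2AK2 and TLR3, and STAT2, IRF9 and ISG15. Sites in 3′ untranslated regions came from GENCODE release 44, promoters from RefSeq. The alternatives were the edgeR quasi-likelihood test, DESeq2 1.42.0, library size only, no filter, sample weights, log2 TPM with a pseudocount of 1 or 0.1, a replicate block and leaving out each library.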

Additional observations from a re-analysis of the deposited data

How the results depend on the processing

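The number of genes of the set called with siCEACAM6#2 versus NTC, 0 in limma-voom, was 1 in DESeq2 and with a replicate block (IRF1, adjusted p = 0.0358 with the block), 3 with sample weights (OAS1, OAS3 and IRF1) and 0 to 1 without 1 library. With siCEACAM6#3 it went from 0 to 1 in DESeq2 (SAMD9), 2 with sample weights (OASL and SAMD9) and 0 to 1 without 1 library. In the average it went from 0 to 1 in DESeq2 (IRF1) and 2 with sample weights (OASL and IRF1). Over all genes, siCEACAM6#2, siCEACAM6#3 and the average gave 3.95%, 1.72% and 2.63% called in DESeq2, 6.36%, 2.17% and 5.1% with sample weights and 1.61%, 0.494% and 0.67% with the replicate block, and between the siRNAs these were 4.01%, 3.18% and 1.98%. Between the siRNAs the count of 3 became 1 with library size only, on log2(TPM + 1) and on log2(TPM + 0.1), 2 with no filter, 2 with the replicate block, where PARP9 had an adjusted p of 0.0551, and 1 to 3 without 1 library. Over all genes, 1.32% were called with library size only, 0.278% and 0.301% on the TPM scales and 0.532% with no filter. In the main limma-voom fit 1.47% were called. Between groups, the deviations of same-numbered replicates from their group means had correlations of -0.118 to 0.280 (median 0.037). For differently numbered replicates these were -0.347 to 0.284 (median -0.026). The numbers were not taken as pairs in the main fit, and the replicate block is the alternative that uses them. The set's median of 0.08 with siCEACAM6#2 was 0.024 and 0.032 on log2(TPM + 1) and log2(TPM + 0.1) and 0.073 to 0.11 without 1 library. The median of 0.10 with siCEACAM6#3 was 0.067 with library size only, 0.13 with no filter and 0.012 and 0.013 on the TPM scales. With no filter, 39672 genes were fitted instead of 17620. That median therefore also covers CMPK2, RSAD2, BST2, IFITM1 and IFI27 and is not over the same genes. That of 0.09 in the average was 0.018 and 0.022 on the TPM scales. That of 0.05 between the siRNAs was -0.0087 and -0.0023 on the TPM scales and 0.024 to 0.086 without 1 library. Relative to the median of all genes in the same setting, the set with siCEACAM6#3 lay at 0.10 in limma-voom, 0.10 with library size only, 0.11 with no filter and 0.05 and 0.07 on the TPM scales, with siCEACAM6#2 at 0.08 and, on the TPM scales, 0.04 and 0.06, in the average at 0.09 against 0.05 and 0.06, and between the siRNAs at 0.06 against 0.02 and 0.03. The sign turned on log2(TPM + 1) and log2(TPM + 0.1) with siCEACAM6#2 for SAMD9L (-0.086 and -0.23), EIF2AK2 (0.012 and 0.012), IRF9 (-0.098 and -0.10) and OAS2 (-0.028 and -0.047), with siCEACAM6#3 for SAMD9L (-0.11 and -0.24), IFITM3 (-0.033 and -0.033), ADAR (-0.026 and -0.026), RIGI (-0.0093 and -0.020), EIF2AK2 (-0.023 and -0.027) and OAS2 (-0.029 and -0.033), and in the average for SAMD9L (-0.096 and -0.23). With siCEACAM6#3 it also turned for ADAR with library size only (-0.016) and sample weights (-0.0070), and without 1 library the log2 fold change ran from -0.032 to 0.040 for ADAR, -0.0095 to 0.086 for IFITM3, -0.023 to 0.18 for RIGI and -0.024 to 0.20 for ISG15. None of these turned values was called in limma-voom, and the cause was not tested. Of the other values of single genes, 889 kept their direction and side of the threshold, 16 passed the threshold under an alternative and 25 lost it. Over all genes, calls on log2(TPM + 1) were 5, 4, 2 and 49 for siCEACAM6#2, siCEACAM6#3, the average and between the siRNAs, against 221, 12, 40 and 259. With the last base of the motif left free, 24 of 40 windows (60%) matched, beside 8.11% of all promoters. CMPK2, RSAD2, BST2, IFITM1 and IFI27 were under the expression filter in the main limma-voom fit and so were not tested there.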
